A study of Mus musculus with 6 samples.

Results

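Bile acids secreted into the gut are taken back up in the last part of the small intestine, the ileum, and returned to the liver. The ileal enterocyte takes them up across its apical membrane, carries them through the cytosol on a binding protein and releases them across its basolateral membrane. Bile acids in the cell also activate the nuclear receptor FXR, which induces several genes of this route and the hormone FGF15. FGF15 travels to the liver, where it represses bile acid synthesis through the receptor FGFR4 and its co-receptor beta-klotho. The genes described here are 10 members of this system, chosen by name out of 32219 genes measured. They are Slc10a2, Fabp6, Slc51a and Slc51b for transport, Nr1h4 (FXR) and Gpbar1 for sensing, Fgf15 and Nr0b2 as targets of FXR, and Fgfr4 and Klb as parts of the FGF15 receptor.

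The libraries were made from polyadenylated RNA of mouse intestine, 3 labelled knockout (KO) and 3 labelled wild type (WT). The labels name epithelial cells, immune cells and enteric neurons as the cells in the tissue, and the series' own design text names the duodenum. Which gene was knocked out, in which cells, and the strain, age, sex and number of mice behind each library were not stated in the labels, so p-values measure the spread between libraries, which may be technical. In bulk tissue, fewer cells of a type and less RNA per cell cannot be told apart.

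Values are the authors' logs of a normalized abundance, taken here as log2(abundance + 1). For genes near 0, folds come out smaller than the change in abundance. Because the abundance unit and the log base are not given, levels are compared between libraries for the same gene and not between genes. KO 1 holds no values on chromosomes 2 to 9, X and M and most of 19. It covers Fabp6, Slc51a, Nr1h4, Gpbar1 and Fgfr4, and the zeros of the other 5 members in that library are missing values. Where KO 1 has values it is scaled up, and "rescaled" below means that the abundances of KO 1 were lowered by a factor of 2.12, its median ratio to the others over 2160 genes.

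KO 2, KO 3 and the WT libraries all carried the ileal bile acid genes. KO 1 differed from these 5 libraries in genes that mark position along the gut, with high Gata4 and Lct and low Hoxb9. It was therefore kept out of the comparison of KO with WT and is described after it.

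None of the 10 genes passed the test between KO 2 and KO 3 on one side and the 3 WT libraries on the other. The values of the groups overlapped for all 10, and 0 had an unadjusted p under 0.05 by limma. Over all 22047 genes tested, 0.00454% passed (1 gene, the predicted gene Gm49380, which is not among the 10), 2.23% had an unadjusted p under 0.05 and 13.6% had groups that did not overlap. The log2 folds of the 10 genes were positive for 7 and negative for 3, with a median of 0.12, while 61.1% of all genes had a positive fold and the median was 0.03. All 10 adjusted p-values by limma were 0.99998.

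**Figure D1:**
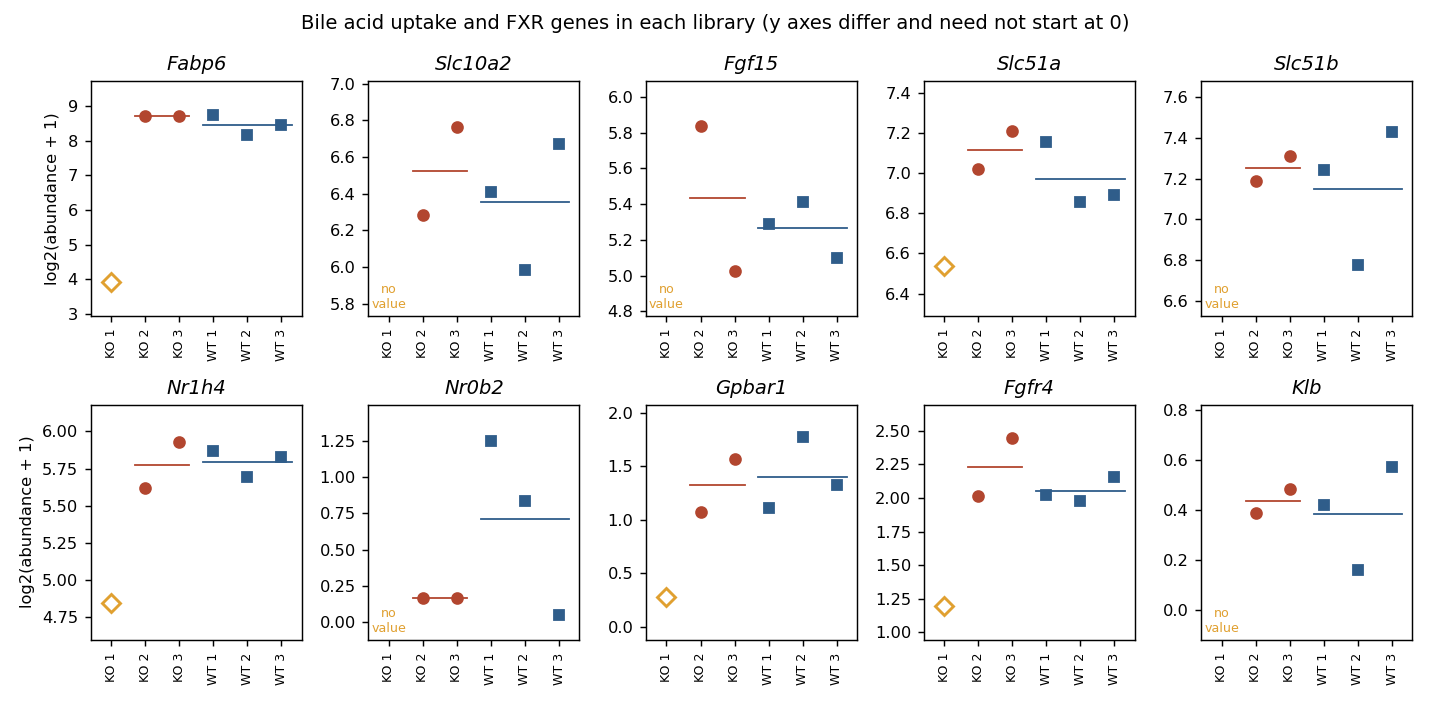
Log2(abundance + 1) of each of the 10 genes (y axis, a separate scale for each gene) in each library (x axis). Open diamonds are KO 1 after rescaling, circles are KO 2 and KO 3, squares are WT, and lines are the means of KO 2 and KO 3 and of WT. KO 2 and KO 3 overlap WT in every panel, and KO 1 lies below the other libraries in the 5 panels where it has a value.

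Slc10a2 (ENSMUSG00000023073.2, protein-coding, chr8:5083219-5105351, minus strand, mm10) encodes ASBT, the sodium-dependent transporter that brings bile acids into the enterocyte. Its log2 values were 6.28 and 6.76 in KO 2 and KO 3, against 6.41, 5.98 and 6.67 in WT 1, WT 2 and WT 3. KO 3 was the highest library and WT 2 the lowest, and KO 2 fell between WT 2 and WT 1. The log2 fold was 0.17 ± 0.24 (SE), with a 95% interval of -0.40 to 0.74 (limma). Its sign rested on single libraries, since the fold was -0.02 without WT 2 and -0.07 without KO 3.

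Fabp6 (ENSMUSG00000020405.4, protein-coding, chr11:43596049-43601540, minus strand) encodes the ileal bile acid-binding protein of the cytosol. It stood at 8.71 and 8.73 in KO 2 and KO 3, against 8.76, 8.16 and 8.46 in WT 1, WT 2 and WT 3. The KO 2 and KO 3 values lay close together just under WT 1, and WT 2 was the lowest of the 5. The log2 fold was 0.26 ± 0.20 (SE), with a 95% interval of -0.24 to 0.76 (limma), and it was 0.11 without WT 2 and 0.41 without WT 1.

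The 250 bases before the start of Fabp6 are shown because FXR is known to act on this gene and because KO 1 differed most from the other libraries at Fabp6 among the members that it covers. The sequence is from RefSeq (GRCm38.p6, the assembly of mm10), chr11:43601563-43601812, minus strand, and the capitals mark matches to IR-1, the inverted repeat that FXR binds with its partner RXR (AGGTCA, any 1 base, then TGACCT).
Fabp6: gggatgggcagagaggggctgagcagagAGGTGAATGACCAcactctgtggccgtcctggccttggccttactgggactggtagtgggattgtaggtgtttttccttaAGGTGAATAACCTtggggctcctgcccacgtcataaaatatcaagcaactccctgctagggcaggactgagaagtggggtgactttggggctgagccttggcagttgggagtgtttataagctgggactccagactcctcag
Both matches, AGGTGAATGACCA at chr11:43601772-43601784 and AGGTGAATAACCT at chr11:43601692-43601704, differ from the repeat at 2 bases, and they begin 222 and 142 bases before the start. On either strand, 0.959% of 32851 promoter windows in the table held a match with at most 2 mismatches, and 4 windows (0.0122%) held at least 2 such matches. The table gave a window for 9 of the 10 genes, and of these 9 that of Fabp6 alone had a match at this limit. Fgf15 had no window there and was not searched. With at most 3 mismatches, 3 of the 9 windows had a match (Fabp6, Slc51a and Slc51b), as did 9.63% of all windows. A match is a description of the letters and no measure of binding.

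Windows were also searched on both strands for the palindrome bound by HNF1 factors (GTTAAT, any 1 base, then ATTAAC), which are known to control Slc10a2, and for DR-1 (AGGTCA, any 1 base, then AGGTCA), the direct repeat bound by HNF4A and other receptors. The window of Slc10a2 is shown since HNF1 had its best match there (chr8:5105288-5105537, minus strand, RefSeq, GRCm38.p6), with the match in capitals.
Slc10a2: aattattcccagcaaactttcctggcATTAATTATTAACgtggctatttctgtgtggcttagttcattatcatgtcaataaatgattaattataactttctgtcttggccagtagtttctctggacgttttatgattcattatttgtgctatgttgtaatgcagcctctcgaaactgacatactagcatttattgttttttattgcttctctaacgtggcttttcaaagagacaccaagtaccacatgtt
This match had 1 mismatch, and 0.189% of all windows held a match with at most 1. With at most 2 mismatches, Nr1h4 and Klb also had one, against 1.24% of all windows. These windows follow RefSeq starts, which differ from the gene bounds given here: that of Nr1h4 (chr10:89506659-89506908) lies inside the gene, and the match of Klb (chr5:65348335-65348347) lies past its first base. For DR-1, Nr1h4 had a match with 2 mismatches, against 3.24% of all windows. IR-1 and DR-1 share the repeat unit AGGTCA, and this site of Nr1h4, TGGCATTTGACCT, was also its nearest letters to IR-1, at 4 mismatches.

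Slc51a and Slc51b encode the subunits of OST alpha and beta, the transporter that moves bile acids out across the basolateral membrane. Slc51a (ENSMUSG00000035699.8, protein-coding, chr16:32474504-32487879, minus strand) stood at 7.02 and 7.21 in KO 2 and KO 3, against 7.16, 6.86 and 6.89 in WT 1, WT 2 and WT 3. KO 3 was highest, and KO 2 lay between WT 3 and WT 1. Its log2 fold was 0.14 ± 0.13 (SE), with a 95% interval of -0.18 to 0.47 (limma), and it ran from 0.049 without KO 3 to 0.24 without KO 2.

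Slc51b (ENSMUSG00000053862.6, protein-coding, chr9:65412714-65422955, minus strand) stood at 7.19 and 7.31 in KO 2 and KO 3, against 7.24, 6.78 and 7.43 in WT 1, WT 2 and WT 3. WT 3 was the highest library and WT 2 the lowest, so both KO libraries lay inside the WT range. The log2 fold was 0.10 ± 0.20 (SE), with a 95% interval of -0.39 to 0.59 (limma), and it was -0.08 without WT 2. The difference Slc51a minus Slc51b on the log2 scale was -0.17 and -0.10 in KO 2 and KO 3, against -0.09, 0.08 and -0.54 in WT 1, WT 2 and WT 3. WT 3 thus held the least Slc51a for its Slc51b. Exons of Slc51a overlap Pcyt1a, and exons of Slc51b overlap Rasl12, both on the opposite strand. Since the strand setting of the counting is not given, reads of these genes cannot be told apart there. Pcyt1a ranged from 4.57 to 5.16 and Rasl12 from 1.94 to 2.49 over the 5 libraries.

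Nr1h4 (ENSMUSG00000047638.15, protein-coding, chr10:89454234-89533585, minus strand) encodes FXR itself. Its values were 5.62 and 5.93 in KO 2 and KO 3, against 5.87, 5.69 and 5.83 in WT 1, WT 2 and WT 3. KO 2 was the lowest library and KO 3 the highest, with all WT libraries between them. KO over WT came to a log2 fold of -0.02 ± 0.12 (SE), with a 95% interval of -0.31 to 0.27 (limma). Nr1h4 had the smallest spread of the 10 over the 5 libraries (SD 0.13).

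Gpbar1 (ENSMUSG00000064272.3, protein-coding, chr1:74278550-74279624, plus strand) encodes TGR5, the bile acid receptor of the cell surface, known from enteroendocrine cells, macrophages and smooth muscle. It was low, at 1.07 and 1.57 in KO 2 and KO 3, against 1.11, 1.77 and 1.32 in WT 1, WT 2 and WT 3. WT 2 was highest and KO 2 lowest. The fold on the log2 scale was -0.08 ± 0.26 (SE), with a 95% interval of -0.70 to 0.54 (limma). The mean of 9 enteroendocrine genes was 3.10 and 3.23 in KO 2 and KO 3, against 3.05, 3.07 and 3.10 in WT 1, WT 2 and WT 3, which is another order of libraries. Single enteroendocrine genes departed from that mean: Scg2 and Cck had WT 2, KO 3 and WT 3 as their 3 highest libraries, as Gpbar1 did. The other genes of that list did not. The smooth muscle mean, given below, also had WT 2, KO 3 and WT 3 as its 3 highest libraries. Which cells the Gpbar1 values come from was not tested. The macrophage mean was highest in WT 2 but lowest in KO 3.

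Fgf15 (ENSMUSG00000031073.6, protein-coding, chr7:144896531-144900953, plus strand), the mouse counterpart of human FGF19, is the hormone that FXR induces in the ileum. It stood at 5.84 and 5.02 in KO 2 and KO 3, against 5.29, 5.41 and 5.10 in WT 1, WT 2 and WT 3. KO 2 was the highest and KO 3 the lowest of the 5 libraries, so the KO libraries lay on opposite sides of the WT range, 0.82 apart on the log2 scale. The log2 fold was 0.16 ± 0.24 (SE), with a 95% interval of -0.42 to 0.75 (limma). It was -0.24 without KO 2 and 0.57 without KO 3, each with 1 KO library left. Exons of Fgf15 overlap the antisense genes Gm26793 and Gm39119, which stood at 0.24 or less and 0.80 or less in these libraries.

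Nr0b2 (ENSMUSG00000037583.2, protein-coding, chr4:133553376-133556536, plus strand) encodes SHP, a repressor that FXR induces. It stood at 0.17 and 0.16 in KO 2 and KO 3, against 1.25, 0.83 and 0.05 in WT 1, WT 2 and WT 3. WT 1 and WT 2 were above both KO libraries and WT 3 was below them. The log2 fold was -0.54 ± 0.33 (SE), with a 95% interval of -1.34 to 0.25 (limma), and its unadjusted p of 0.146 was the smallest of the 10. WT 1 and WT 3 set its size, since it was -0.27 without WT 1 and -0.88 without WT 3 (unadjusted p = 0.00246, limma, adjusted p = 0.99977). Nr0b2 and Fgf15 ordered the libraries differently, since KO 2 was the highest library for Fgf15 and stood below WT 1 and WT 2 for Nr0b2.

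Fgfr4 (ENSMUSG00000005320.9, protein-coding, chr13:55152640-55168759, plus strand) and Klb (ENSMUSG00000029195.10, protein-coding, chr5:65348314-65384007, plus strand) form the receptor for FGF15 in the liver. Fgfr4 stood at 2.02 and 2.44 in KO 2 and KO 3, against 2.02, 1.97 and 2.15 in WT 1, WT 2 and WT 3. KO 3 was the highest library and KO 2 lay inside the WT range. Klb was near the bottom of the scale, at 0.39 and 0.48 in KO 2 and KO 3, against 0.42, 0.16 and 0.57 in WT 1, WT 2 and WT 3. The log2 folds were 0.18 ± 0.18 for Fgfr4, with a 95% interval of -0.27 to 0.63, and 0.05 ± 0.13 (SE) for Klb, with a 95% interval of -0.26 to 0.36 (limma).

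**Figure D2:**
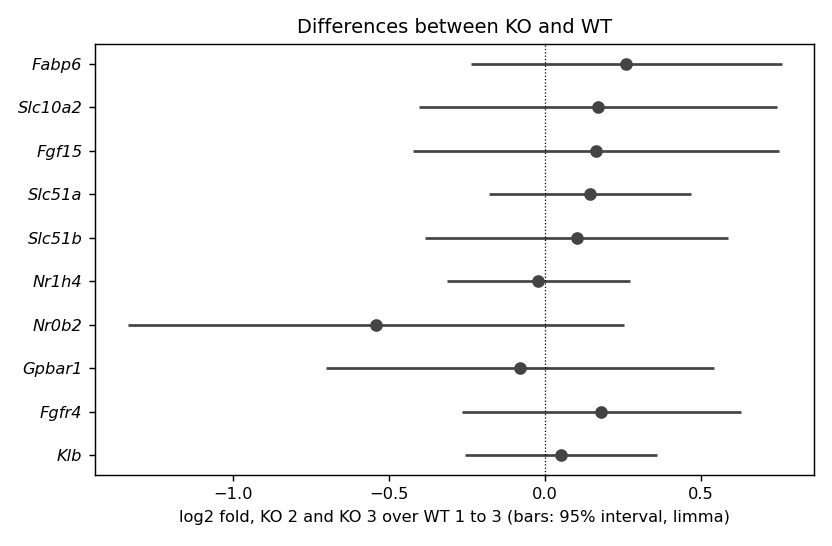
Log2 fold of KO 2 and KO 3 over WT (x axis) for each of the 10 genes (y axis). Points are limma estimates and bars are 95% intervals. All 10 intervals include 0, and that of Nr0b2 is the widest, from -1.34 to 0.25.

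The spread over the 5 libraries differed among the members. Over the 5 libraries, Nr0b2 had an SD of 0.52, Fgf15 of 0.32, Slc10a2 of 0.31, Fabp6 of 0.25, Slc51b of 0.25 and Slc51a of 0.16. Among genes with a mean within 0.5 log2 units of their own, 98.9% had a smaller SD than Nr0b2 and 96.5% than Fgf15. The share was 94.2% for Slc10a2, 89.4% for Slc51b, 83.3% for Gpbar1, 81.4% for Fabp6, 76.7% for Klb and 66.7% for Slc51a. Nr1h4 was near the middle, with 52.1% below it, and Fgfr4 had 58.1% below it. The genes set beside Nr0b2 reached down to values near 0 (7714 genes, median SD 0.096), and Fabp6 was set beside only 43 genes. These shares describe 5 libraries and carry no test.

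WT 2 was the lowest of the 5 libraries for Fabp6, Slc10a2, Slc51a, Slc51b, Fgfr4 and Klb, and not for the other members. The share of all genes that were lowest in WT 2 was not counted, so this place may be common. The mean of the distal list was also lowest in WT 2, at 4.85. An enterocyte marker mean had the same lowest library: the mean of 16 enterocyte genes such as Vil1 and Sis was 6.83 and 7.24 in KO 2 and KO 3, against 7.06, 6.72 and 6.99 in WT 1, WT 2 and WT 3, so WT 2 was lowest here too. The mean of 8 smooth muscle genes was 6.61 and 7.01 in KO 2 and KO 3, against 6.57, 7.03 and 6.92 in WT 1, WT 2 and WT 3. For 9 macrophage genes it was 3.61 and 3.07 in KO 2 and KO 3, against 3.24, 3.72 and 3.14 in WT 1, WT 2 and WT 3. Fgf15 did not follow the enterocyte genes: it was highest in KO 2, whose enterocyte mean was the second lowest, and lowest in KO 3, whose enterocyte mean was the highest. Its order was closer to that of the macrophage mean, which was also high in KO 2 and WT 2 and lowest in KO 3. That is the list mean, and single genes departed from it: Cd163 was lowest in KO 2 at 0.68 and highest in KO 3 at 1.39, Cd14 was highest in WT 3 at 3.05, and Csf1r and Cd68 were lowest in WT 3 at 2.85 and 2.31. Gcg, a gene of the distal and enteroendocrine lists, ordered the 5 libraries as Fgf15 did, which the macrophage mean did not. It stood at 5.85 and 5.16 in KO 2 and KO 3, against 5.57, 5.59 and 5.37 in WT 1, WT 2 and WT 3. The enteroendocrine mean, given above, had another order, with KO 3 highest. The part of cell content in these differences was not tested. With the libraries scaled to equal enterocyte means, an alternative added after seeing the data, the log2 folds were 0.15 for Fabp6, 0.06 for Slc10a2, 0.04 for Slc51a, -0.01 for Slc51b and 0.06 for Fgf15, and none of the 10 passed.

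**Figure D3:**
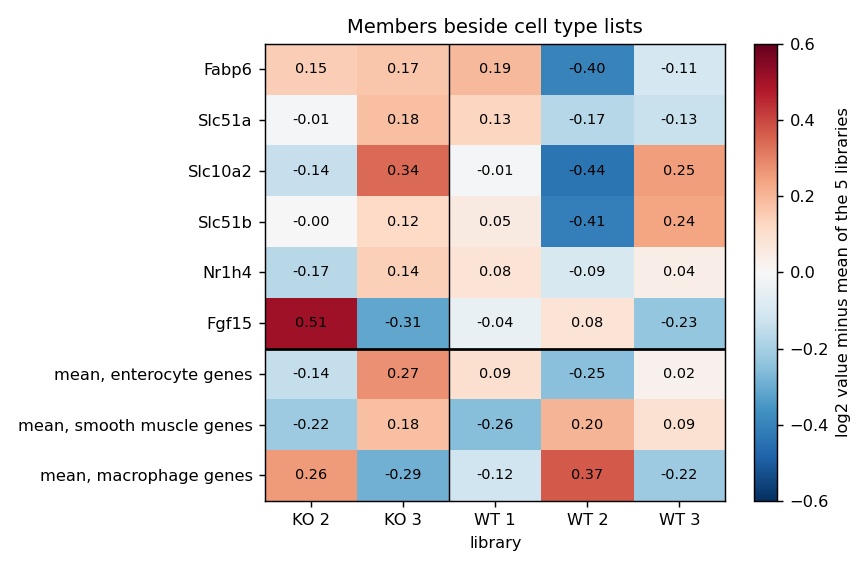
Log2 value minus the mean of the 5 libraries (colour and number) for 6 of the genes and for the means of 3 cell type lists (rows) in each library (columns). WT 2 is low for Fabp6, Slc10a2, Slc51b and the enterocyte mean, at -0.40, -0.44, -0.41 and -0.25, while Fgf15 is high in KO 2 at 0.51.

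Fgf15 and the transporters were therefore out of step. Fgf15 minus Slc10a2 on the log2 scale was -0.44 and -1.74 in KO 2 and KO 3, against -1.12, -0.57 and -1.57 in WT 1, WT 2 and WT 3. The extremes of this difference were the KO libraries, 1.30 apart, and the group means were -1.09 in KO 2 and KO 3 and -1.09 in WT. Slc10a2 minus Slc51b spanned 0.36, the narrowest of the 6 differences between members that were computed, at -0.91 and -0.55 in KO 2 and KO 3, against -0.83, -0.80 and -0.76 in WT 1, WT 2 and WT 3. Slc10a2 and Slc51b thus moved together over the libraries more closely than Fgf15 and Slc10a2 did.

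Genes whose pattern over the 5 libraries was nearest to a member were found by the root mean square distance between values centred on their own mean, among 10642 genes with a mean of at least 2. The nearest to Slc10a2 were Slc5a8, a sodium-coupled monocarboxylate transporter (0.05), Pard6b, a cell polarity gene (0.06), and Abcg2, an efflux transporter (0.06), where a gene with no variation would lie at 0.28. Slc51b came 56th in this order, at 0.12. The nearest to Fabp6 were Cd47, a cell surface protein (0.07), Stxbp2, a vesicle fusion gene (0.08), and Itpkc, an inositol phosphate kinase (0.08), with a gene of no variation at 0.23, and Slc51a came 57th, at 0.13. The nearest to Fgf15 were Serpina1b, a protease inhibitor (0.07), Shisa5 (0.08) and Tmem229b (0.08), with a gene of no variation at 0.29. Fgf15 and Slc10a2 lay 0.52 apart, farther than a gene with no variation lay from either. All of these distances rest on 5 libraries that also differ in the marker means given above.

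KO 1 was set beside the other libraries for the 5 members that it covers. Fabp6 stood at 3.91 after rescaling (4.95 as deposited) in KO 1, against 8.16 to 8.76 in the other 5 libraries. Slc51a stood at 6.54 (7.62 as deposited), against 6.86 to 7.21, and Nr1h4 at 4.85 (5.91 as deposited), against 5.62 to 5.93. Gpbar1 was at 0.28 (0.53 as deposited), against 1.07 to 1.77, and Fgfr4 at 1.20 (1.90 as deposited), against 1.97 to 2.44.

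All 5 were below the range of the other libraries after rescaling. Of 6516 covered genes with a mean of at least 1, 42.2% were below it too and 21.5% above it. A place below the range is thus common in itself, and the distance below it differed among the 5. As deposited, Slc51a was above the range, Nr1h4 inside it, and Fabp6, Gpbar1 and Fgfr4 below it, as were 9.56% of the covered genes. Fabp6 was 5th of the 6516 genes in how far it lay below the lowest other library, and 0.921% of them lay more than 2 log2 units below. In the same order Gpbar1 was 519th, Fgfr4 547th, Nr1h4 553rd and Slc51a 1273rd. With 1 library on one side there is no test. With KO 1 rescaled and added to the KO group, the log2 folds over WT were -1.34 ± 1.26 (SE) for Fabp6, -0.05 ± 0.19 for Slc51a, -0.33 ± 0.26 for Nr1h4, -0.43 ± 0.35 for Gpbar1 and -0.16 ± 0.31 for Fgfr4 (limma, adjusted p = 0.99994 for each), so that none passed and the sign turned for Fabp6, Slc51a and Fgfr4.

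A ratio of 2 genes within a library does not depend on how that library was scaled. The linear ratio of Fabp6 to Slc51a was 0.153 in KO 1, against 2.49 to 3.25 in the other 5 libraries, 16.3-fold under the lowest of them. The ratio of Nr1h4 to Slc51a was 0.302 in KO 1, against 0.375 to 0.474, 1.24-fold under the lowest. The ratio of Fabp6 to the epithelial gene Vil1 was 0.0376 in KO 1, against 1.498 to 2.003, while that of Slc51a to Vil1 was 0.246, against 0.540 to 0.617, and that of Nr1h4 to Vil1 was 0.0744, against 0.229 to 0.266, 3.08-fold under the lowest. All of these ratios were below the other libraries in KO 1, and the ratios with Fabp6 were farther below than those of Slc51a and Nr1h4. The reference genes also differed in KO 1 after rescaling. Vil1 was above the other libraries, at 8.55 against 7.58 to 7.98, which lowers each ratio to it. Slc51a was below them, which raises each ratio to it. If the deposited values are natural logs, the ratio of Fabp6 to Slc51a in KO 1 is lower than the lowest other by a factor of 53.7 and that of Nr1h4 to Slc51a by 1.37.

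Genes of gut position differed in KO 1 as well. Of 8 covered genes of the distal list, 6 were below the other libraries after rescaling (Hoxb6, Hoxb7, Hoxb8 and Hoxb9 under both scalings, while Mep1a was above and Pyy within the range as deposited), with Hoxb9 at 0.16 after rescaling against 4.10 to 4.29 and Hoxb6 at 1.30 against 4.16 to 4.54. Amn, a subunit of the ileal receptor for vitamin B12, was above them at 5.71 against 4.57 to 5.11, and Nts, a hormone gene of the distal gut, was inside the range, and above it as deposited. Of 5 covered proximal genes, 4 were above, with the transcription factor Gata4 at 5.19 against 0.43 to 0.63 and Lct at 7.05 against 1.08 to 2.01, and the iron exporter Slc40a1 was below, at 5.15 against 6.30 to 6.67. Enterocyte genes were above in 6 of 7 (Cdx1 was below, and above as deposited), such as Vil1 at 8.55 against 7.58 to 7.98, and all 3 covered smooth muscle genes were below, with Des at 2.25 against 6.82 to 7.37. The genes of the ileal uptake route were thus present in the 5 libraries that were high in distal Hox genes and low in Gata4. In KO 1, Fabp6 was low. The design text names the duodenum, and the gut position of the libraries was not tested. Genotype, gut position and cell content cannot be told apart for KO 1.

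**Figure D4:**
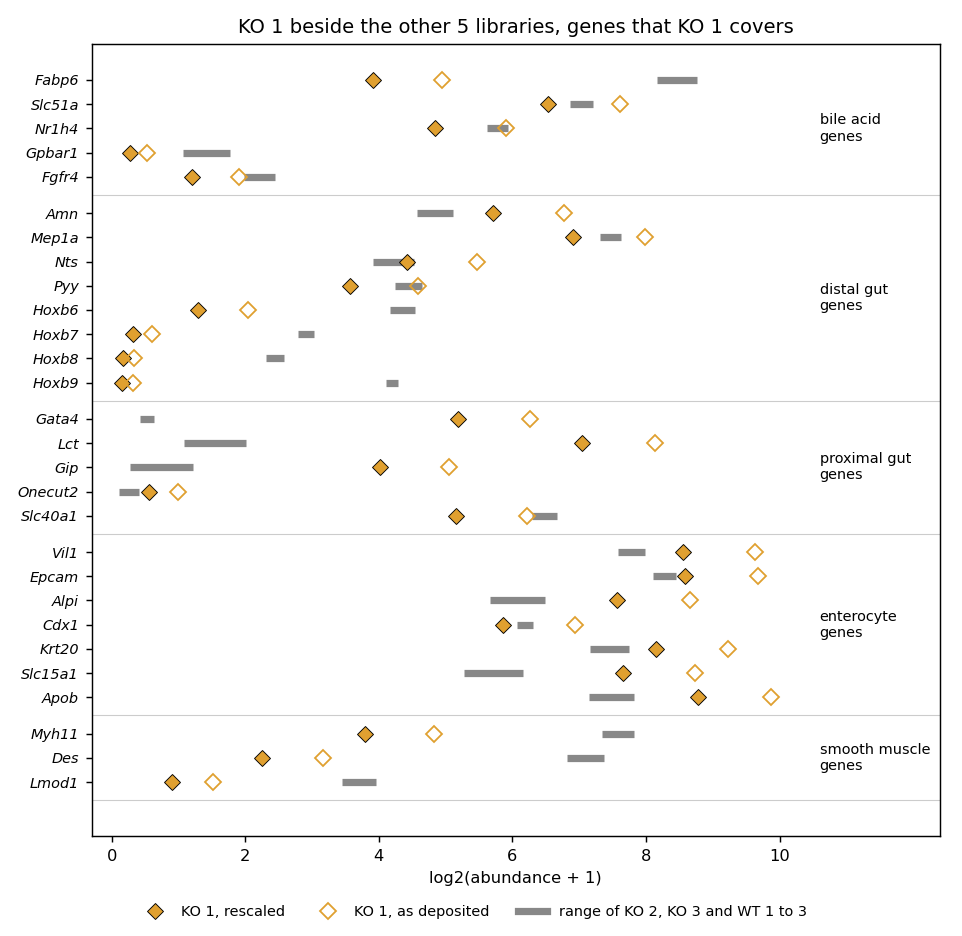
Log2(abundance + 1) (x axis) of covered genes (y axis) in KO 1, after rescaling (filled diamonds) and as deposited (open diamonds), beside the range of KO 2, KO 3 and WT 1 to 3 (grey bars). Fabp6, Hoxb9 and Des lie far left of the grey bars under both scalings, and Gata4, Lct and Gip far right.

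The wider pathway was read from lists of related genes, none of which held a gene past the threshold by limma, over all genes, in KO 2 and KO 3 against WT. Of 9 tested bile acid transporters other than the members, 7 had a higher mean in KO and 2 a lower one (median log2 fold 0.03). Abcc2, the apical export pump for conjugates, stood at 3.35 and 4.57 in KO 2 and KO 3, against 3.98, 3.71 and 3.31 in WT 1, WT 2 and WT 3, and so varied more within KO than between the groups. Abcg2 had a log2 fold of 0.17, and the hepatic bile salt export pump Abcb11 was at 0.08 or less in each of the 5 libraries.

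Of 20 partners and regulators, 16 had a higher mean in KO and 4 a lower one (median log2 fold 0.06). Without overlap of the groups, 5 were higher (Rxrb, Nr5a2, Ncoa2, Gps2 and Sirt1) and 0 lower, where 9.82% of all genes were higher and 3.77% lower. Among the 4 with the smallest p, the coactivator Ncoa2 had a log2 fold of 0.25 ± 0.12 (SE) and the corepressor subunit Gps2 0.17 ± 0.09. The fatty acid receptor Ppara had 0.31 ± 0.20. Nr5a2, which encodes LRH-1, a nuclear receptor that regulates bile acid genes, had 0.16 ± 0.11. In KO 1 after rescaling, Nr1i3 (CAR), a receptor for foreign compounds, stood at 3.36 against 0.69 to 1.38 in the other 5 libraries, and Nr1i2 (PXR), a related receptor, at 4.69 against 4.23 to 4.49.

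Of 7 further FXR target genes of the gut, 5 had a higher and 2 a lower mean in KO (median 0.06). Those with the smallest p were Abcc2 (0.29), Sdc1, a syndecan (0.07), Ang, an antimicrobial ribonuclease (0.08), and Pltp, a phospholipid transfer protein (-0.08). Nos2, the inducible nitric oxide synthase, stood at 7.12 in KO 1 after rescaling, against 5.27 to 5.83 in the other libraries. The other covered genes of this list were below the others in KO 1 after rescaling, with Sdc1 at 4.41 against 4.80 to 5.12 and Ang at 3.11 against 3.57 to 4.04, and above them as deposited.

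Of 8 tested genes of the endocrine FGF axis, 6 had a higher and 2 a lower mean in KO (median 0.05). Malrd1, which encodes Diet1, a protein that raises FGF15 output in mouse enterocytes, stood at 5.389 and 5.302 in KO 2 and KO 3, against 5.36, 5.16 and 5.31 in WT 1, WT 2 and WT 3. It was nearly level, while Fgf15 spanned 0.82. Fgf21, a related hormone of the liver, was listed at 0 in all 5 libraries. The other 3 with the smallest p were Fgf23 (0.09), Fgfr2 (0.18) and the signalling adaptor Frs2 (0.10).

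Of 11 tested genes of bile acid synthesis and conjugation, 8 had a higher and 3 a lower mean in KO (median 0.06). Cyp7a1, the rate-limiting enzyme of synthesis in the liver, and Akr1d1 were listed at 0 in all 5 libraries. Acox2, a peroxisomal oxidase of side chain shortening, stood at 2.48 and 3.32 in KO 2 and KO 3, against 2.44, 2.04 and 2.74 in WT 1, WT 2 and WT 3. Its fold of 0.49 ± 0.31 (SE) did not pass, and the KO value rested mostly on KO 3. Slc27a2 had a log2 fold of 0.19, Cyp27a1 0.30 and Scp2 -0.12. Of 6 tested target genes of PXR and the vitamin D receptor, 4 had a higher and 2 a lower mean in KO (median 0.09), with the calcium-binding gene S100g at -0.66 ± 0.43 (SE), Trpv6 at -0.06, Cyp3a13 at 0.19 and Cyp3a11 at 0.24.

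**Figure D5:**
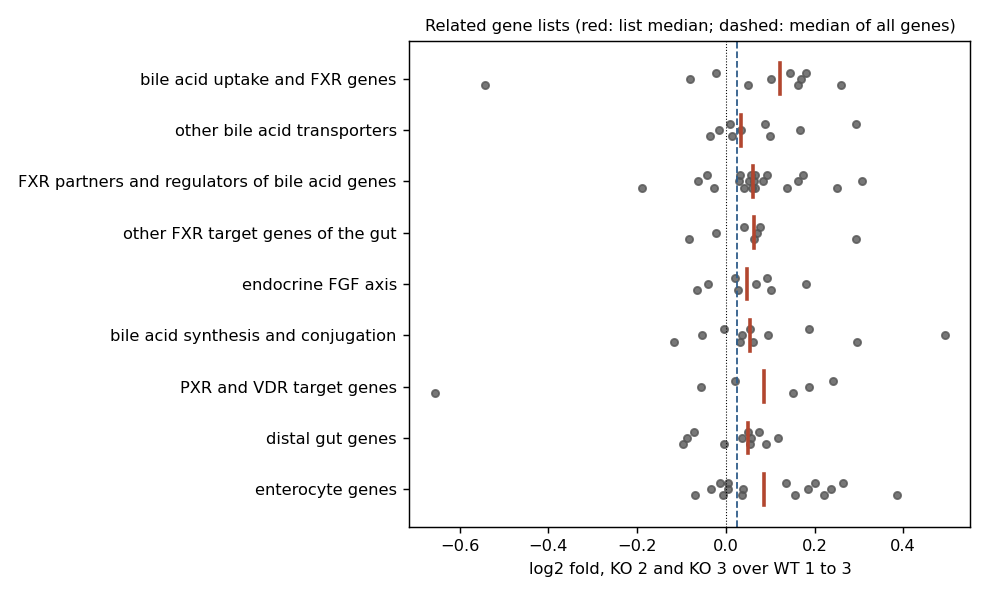
Log2 fold of KO 2 and KO 3 over WT (x axis) for the genes of the bile acid, FXR, FGF, PXR and VDR, distal gut and enterocyte lists (grey points; rows), with the list median (red) and the median of all 22047 genes (dashed, 0.03). The medians of the 9 lists drawn lie between 0.03 and 0.12, and single genes scatter on both sides of 0.

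Distal and enterocyte lists gave the setting for these values. Of 11 distal genes, 7 had a higher and 4 a lower mean in KO (median 0.05), with Hoxb6 at -0.10, Hoxb7 at 0.09, Nts at 0.12 and Mep1a at 0.08. Of 16 enterocyte genes, 12 had a higher and 4 a lower mean (median 0.09), and Fabp2, the fatty acid-binding protein of the whole small intestine, had the smallest p at 0.39 ± 0.28 (SE). Of 17 proximal genes, 8 had a higher and 9 a lower mean in KO (median -0.01). Without overlap of the groups, 2 were higher (Gip and Khk) and 1 lower (Adh6a), where 9.82% of all genes were higher and 3.77% lower. The log2 fold was -0.40 ± 0.20 (SE) for Adh6a and 0.21 ± 0.11 for Khk. Of the 17, the hormone gene Gip had the smallest p (unadjusted p = 0.0134, limma, adjusted p = 0.99998). It stood at 1.14 and 1.22 in KO 2 and KO 3, against 0.27, 0.77 and 0.73 in WT 1, WT 2 and WT 3. Of the liver genes, Alb was at 0.34 or less in each of the 5 libraries, while Ttr, which enteroendocrine cells also express, stood at 1.30 and 1.25 in KO 2 and KO 3, against 0.99, 1.35 and 1.02 in WT 1, WT 2 and WT 3. The pancreatic genes Prss2 and Cpa1 were listed at 0 in all 5. Colon genes were mixed, with Aqp8 at 0.15 or less and Car1 at 3.37 and 3.57 in KO 2 and KO 3, against 3.88, 4.11 and 6.07 in WT 1, WT 2 and WT 3, and WT 3 stood apart there.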

How the data were processed

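The authors deposited 1 table of log values per gene, with the genome build mm10 per the submitters' processing notes and polyadenylated RNA selection with a stranded low-input kit per the labels' protocols. No source used here gives the aligner, counting, strand setting, abundance unit, log base or constant. The deposited values were taken as log2(abundance + 1). Depth is unknown, so no counting interval is given. Of 32245 rows, 26 carried a date for a symbol and were left out. GENCODE vM21 placed 31398 symbols.

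KO 2 and KO 3 were compared with WT 1 to 3 by limma 3.58.1 in R 4.3.3, as a 2-sided moderated test whose variance prior followed the mean. P-values were adjusted by Benjamini-Hochberg over 22047 genes with values over 0 in 3 or more of these libraries, and the threshold was 0.05. The linear values of KO 1 were divided by 2.12 for every gene that it covers. This factor was the median ratio over 2160 covered genes with a mean of 4 or more in the other libraries. All 10 members passed the filter. All 10 were named, and from each list up to 4 genes with the smallest p, with others chosen after their values were seen. The members and lists were chosen with earlier results of these data known. The test was tried on simulated data.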

Additional observations from a re-analysis of the deposited data

How the results depend on the processing

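Of the 10 members, 0 passed by limma under any of the 19 alternatives. The smallest adjusted p of a member (limma) was 0.718, with all 6 libraries as deposited, where missing values of KO 1 enter as 0. The natural log base left every p-value as it was, and the limit of 0.1 was set on the reported p-values. These alternatives are thus no separate checks. The count over all genes, 1 as reported, was 0 with all 6 libraries as deposited, with the replicate block, with no filter, with values above 1 required and with an added constant of 0.1, and 0 over each left-out library. With the replicate block, 0 members passed, and the log2 fold of Fabp6 was 0.41 ± 0.18 (SE, unadjusted p = 0.0598, limma, adjusted p = 0.99981). The labels do not say that numbers pair the libraries, so the block was not taken as the design. Deviations of KO 1, KO 2 and KO 3 correlated with those of the same-numbered WT library at 0.23, 0.48 and 0.07 over covered genes. Over the 5 libraries, the correlations were 0.28 and 0.33 for numbers 2 and 3. With only KO 2 and KO 3 in the group, their deviations mirror each other, so these values are not independent. The correlations were all positive and do not settle whether the libraries are paired. Signs turned in 22 of 188 member folds, none of them past the threshold. With KO 1 as deposited, its missing values enter as 0 for Slc10a2 (-2.01), Fgf15 (-1.65), Slc51b (-2.32) and Klb (-0.094), while the measured KO 1 values gave -0.997 for Fabp6 and 0.022 for Nr1h4. With KO 1 rescaled, Fabp6 was at -1.34, Slc51a at -0.047 and Fgfr4 at -0.16. Median centring gave -0.0059 for Klb, the block 0.014 for Nr1h4, and equal enterocyte means -0.0078 for Slc51b. Over left-out libraries, the folds ran from -0.072 to 0.41 for Slc10a2, -0.24 to 0.57 for Fgf15, -0.084 to 0.24 for Slc51b, -0.18 to 0.13 for Nr1h4, -0.33 to 0.17 for Gpbar1, -0.034 to 0.39 for Fgfr4 and -0.061 to 0.15 for Klb. The folds ran from 0.11 to 0.41 for Fabp6, 0.049 to 0.24 for Slc51a and -0.88 to -0.27 for Nr0b2 with no turn. Other than for the genes where KO 1 enters as 0, the cause of the turns was not tested. With values above 1 required, 8 members were tested. Equal enterocyte means were added after seeing the data. Depth is unknown, so its limits on Nr0b2, Klb and Gpbar1, with values near 0, could not be given.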
